A study of Mus musculus with 2 samples.

Results

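Alternative activation is the state that macrophages enter when interleukin 4 (IL-4) or interleukin 13 (IL-13) binds a receptor that holds the IL-4 receptor alpha chain, and the transcription factor STAT6 then switches on a set of target genes. In lean fat, type 2 immune cells help to maintain this state, and in obesity it is usually set against a classical, inflammatory state. The 5 genes described here were chosen by name from that biology. They are Il4ra, which encodes the receptor chain, the targets Retnla, Chil3 and Mgl2, and Nos2, which encodes the inducible nitric oxide synthase of the classical state. They are 5 of the 32285 genes counted in each of 2 single-cell libraries.

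Both libraries were made from perigonadal white fat (gWAT), from cells of its stromovascular fraction (SVF). The donors were male Cyp1a1Cre x R26LSL-eYFP mice, in which Cre made from the Cyp1a1 gene leaves a lasting eYFP mark in cells that have expressed that gene. Live eYFP+ cells were sorted, so macrophages without the mark were not analysed here. One group ate a low-fat diet with 10% of fat (LFD) and the other a high-fat diet with 60% (HFD), both for 12 weeks. Mice of both groups received FICZ, an aryl hydrocarbon receptor (AHR) ligand that induces Cyp1a1, at 10 mg/kg 5 days before collection. By the paper's account a pair of mice was pooled within each diet, and there was 1 library per diet. The diets could therefore not be compared by a test, and every interval given is a 95% interval that covers counting error only.

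Macrophage-like cells were those with at least 1 unique molecular identifier (UMI, 1 counted RNA molecule) of 4 or more of 7 genes: C1qa, C1qb, C1qc, Pf4, Csf1r, Adgre1 and Cd68. They numbered 543 of 10216 cells on LFD (5.32%, 4.89 to 5.77%) and 540 of 8537 on HFD (6.33%, 5.82 to 6.86%), with a median of 4902 and 6796.5 UMIs per cell. Lyz2, a myeloid gene outside the rule, was present in 99.8% and 100% of them, against 12.6% and 10.5% of all other cells. The pan-leukocyte gene Ptprc was found in 70.7% and 85.7%, and the T cell gene Cd3e in 0% and 0.556%. The cut was not empty on either side, since 79 LFD and 38 HFD cells held exactly 4 of the markers and 78 and 35 held exactly 3. Signal of other cell types was present as well. In all, 130 LFD and 112 HFD macrophage-like cells also passed the marker rule of another class, 74 and 50 of them that of stromal cells, and Gata6, a gene of mesothelial cells and of large peritoneal macrophages, was found in 11.4% and 9.44%. The plasma cell gene Jchain was found in 11.8% and 36.5%, and the stromal gene Pdgfra in 13.4% and 9.07%. The part of such signal in the results was not tested beyond the values given with them. The 2 libraries shared 27 cell barcodes, of which 2 belonged to macrophage-like cells.

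In the mouse genome (GRCm38, GENCODE M21) the genes lie on 4 chromosomes. Retnla (ENSMUSG00000061100) is at chr16:48842551-48844461 on the plus strand and Chil3 (ENSMUSG00000040809) at chr3:106147554-106167564 on the minus strand. Mgl2 (ENSMUSG00000040950) is at chr11:70130329-70137550, Il4ra (ENSMUSG00000030748) at chr7:125552120-125579474 and Nos2 (ENSMUSG00000020826) at chr11:78920787-78960254, all on the plus strand. All 5 are protein-coding genes.

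The sequences before the starts of 3 of the STAT6 target genes are given because Retnla and Mgl2 often shared cells on HFD, while few Chil3-positive cells had a UMI of either, a difference that was not detectable at equal depth for Retnla or Mgl2. They come from RefSeq (GRCm38.p6), run 5′ to 3′ on the gene's strand and end at the base before the gene, and capitals mark the motif TTCNNNNGAA, the paired half-sites that STAT6 prefers.
Retnla, chr16:48842359-48842550, plus strand: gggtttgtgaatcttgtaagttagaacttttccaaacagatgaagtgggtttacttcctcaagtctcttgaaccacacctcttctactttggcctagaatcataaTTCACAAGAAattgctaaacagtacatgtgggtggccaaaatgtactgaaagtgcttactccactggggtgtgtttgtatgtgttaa
Mgl2, chr11:70130107-70130328, plus strand: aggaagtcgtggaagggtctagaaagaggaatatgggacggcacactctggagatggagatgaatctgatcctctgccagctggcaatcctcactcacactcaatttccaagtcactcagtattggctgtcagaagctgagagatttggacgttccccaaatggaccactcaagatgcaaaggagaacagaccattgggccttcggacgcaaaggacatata
Chil3, chr3:106167565-106167814, minus strand: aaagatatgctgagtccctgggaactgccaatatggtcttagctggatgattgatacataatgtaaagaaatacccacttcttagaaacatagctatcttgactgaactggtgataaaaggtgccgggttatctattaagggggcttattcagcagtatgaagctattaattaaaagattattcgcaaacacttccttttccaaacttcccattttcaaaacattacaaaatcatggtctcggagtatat

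The motif, which reads the same on both strands, occurred 1 time in the 250 bases before the RefSeq start of Retnla, at 145 to 136 bases before it, and in none of the same windows of Mgl2, Chil3 and Il4ra. Of all 32851 promoters in the table, 5.85% held it. The AHR response element core GCGTG, searched on both strands, occurred 1 time in the Il4ra window and in none of the other 3. That match lay 153 to 149 bases before the RefSeq start of Il4ra. It runs across the start of the GENCODE gene, which holds the last 151 bases of the window. Of all promoters 28.2% held the core. These matches describe letters in a window and not binding, and 4 of the 5 genes were in the table. The motifs did not overlap. The GENCODE gene of Retnla starts 58 bases before the RefSeq start, so the capitals lie 87 to 78 bases before the end of the printed stretch.

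Levels are given as CPM, the gene's UMIs per 1000000 of all UMIs summed over the macrophage-like cells of a library, and the ratio is HFD over LFD. Among the targets, Retnla was higher on HFD, Mgl2 was higher on HFD to an extent that a single cell set, and Chil3 and the receptor chain Il4ra were lower. Of the 9164 genes with at least 50 counts over both libraries, 1.8% had a ratio of at least 2 and 1.1% a ratio of at most 0.5. Among the genes described here 4 of 5 reached 50 counts, 2 of them (Retnla and Mgl2) had a ratio of at least 2, and none a ratio of 0.5 or below.

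Retnla encodes RELMα, a small secreted protein that marks alternatively activated macrophages. It was at 15.4 CPM on LFD (11.5 to 20.4; 50 UMIs) and 115 CPM on HFD (106 to 126; 520 UMIs), a ratio of 7.47 (5.58 to 10.2). Few cells carried it: 5 LFD cells (0.921%, 0.300 to 2.14%) and 35 HFD cells (6.48%, 4.56 to 8.90%), and after every cell was thinned to 2000 UMIs, which left 505 LFD and 524 HFD cells (equal depth), 0.792% (0.216 to 2.02%) and 4.77% (3.11 to 6.96%). The UMIs were concentrated further, with 48 of the 50 LFD UMIs in 3 cells and 503 of the 520 HFD UMIs in 19 cells. The richest HFD cell held 149 UMIs, 28.7% of the total, and with the richest cell of each library left out the ratio was 9.18 (6.29 to 13.9).

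Mgl2, a galactose-type lectin on the surface of IL-4-treated macrophages and some dendritic cells, was at 11.4 CPM on LFD (8.04 to 15.7; 37 UMIs) and 29.7 CPM on HFD (24.9 to 35.2; 134 UMIs), a ratio of 2.60 (1.79 to 3.85). It was found in 8 LFD cells (1.47%, 0.638 to 2.88%) and 45 HFD cells (8.33%, 6.14 to 10.99%), and at equal depth in 1.19% (0.437 to 2.57%) and 4.58% (2.96 to 6.74%). A single LFD cell held 25 of the 37 UMIs. Without the richest cell of each library the levels were 3.71 and 25.9 CPM and the ratio was 7.0 (3.86 to 13.9). When only cells under 5% mitochondrial UMIs were kept (137 LFD and 151 HFD cells) the direction turned, to a ratio of 0.596 (0.330 to 1.07), and without the richest cell in that subset it was 11.8 (1.87 to 489).

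Chil3 encodes Ym1, a chitinase-like protein without enzyme activity that macrophages secrete after IL-4. It was lower on HFD, at 132 CPM on LFD (119.9 to 145; 428 UMIs) and 69.2 CPM on HFD (61.7 to 77.3; 312 UMIs), a ratio of 0.523 (0.451 to 0.607). Its share was 25.8% of LFD cells (22.2 to 29.7%) and 20.6% of HFD cells (17.2 to 24.2%), and at equal depth 16.6% (13.5 to 20.2%) and 10.9% (8.34 to 13.9%). In both cases the intervals of the LFD and HFD shares overlap. Most positive cells held few UMIs, with a median of 2 and 1 and a maximum of 22 and 30. Under the 5% mitochondrial limit the ratio was 0.807 (0.638 to 1.02). Chil4, a close copy of Chil3, had 0 UMIs in the macrophage-like cells of both libraries, and reads that fit both copies cannot be assigned with certainty.

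Il4ra, through which both IL-4 and IL-13 signal, was also lower on HFD, at 128 CPM (116 to 141; 415 UMIs) against 73.8 CPM (66.1 to 82.2; 333 UMIs), a ratio of 0.576 (0.497 to 0.667). The same number of cells, 224, had a UMI in each library, but the HFD cells were deeper. At equal depth the shares were 20% (16.6 to 23.8%) on LFD and 14.1% (11.3 to 17.4%) on HFD, with intervals that overlap. No cell was rich in it, the maximum being 11 UMIs on LFD and 6 on HFD.

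Nos2 was at the limit of detection in macrophage-like cells. It had 3 UMIs in 3 LFD cells and 1 UMI in 1 HFD cell, where a count of 0 would allow 0.926 and 0.665 CPM, so no ratio is given.

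**Figure D1:**
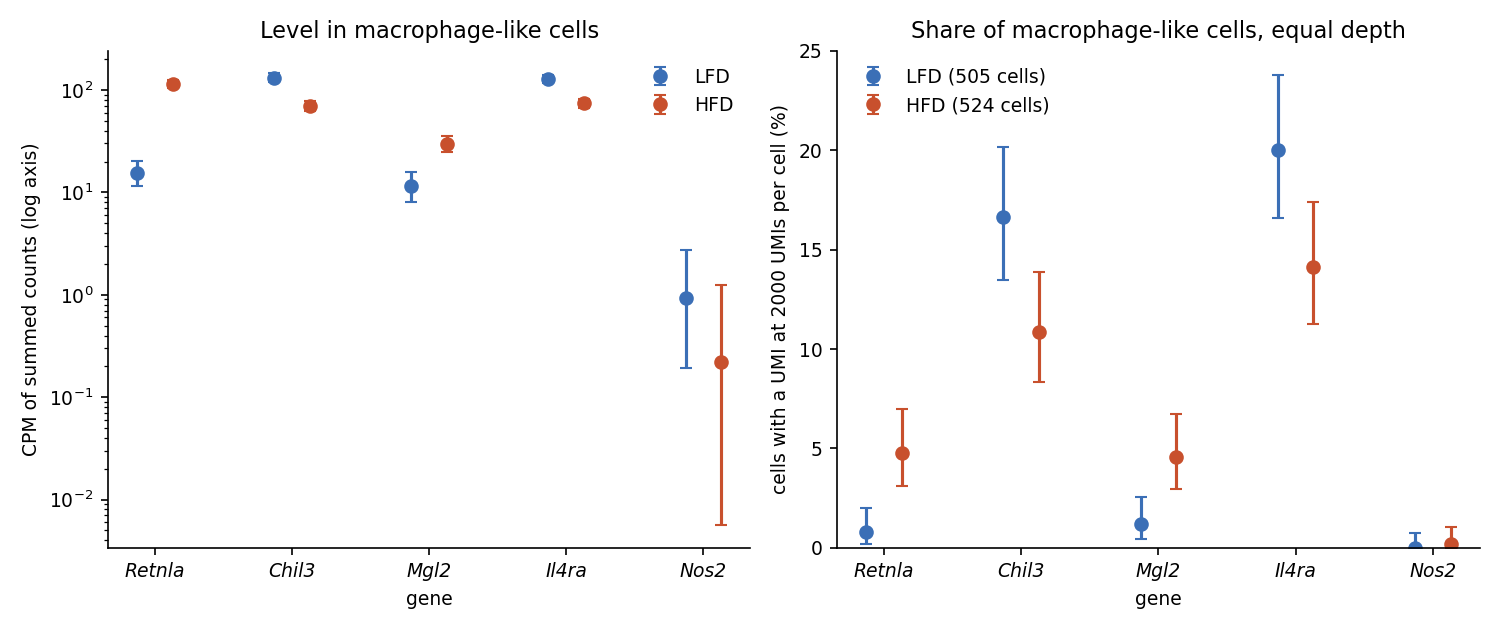
Left: level of each gene in macrophage-like cells as CPM of summed counts on a log axis; right: percent of macrophage-like cells with a UMI after thinning each cell to 2000 UMIs. Points are single libraries (LFD blue, HFD orange) and bars are 95% Poisson (left) or Clopper-Pearson (right) intervals. At left Retnla (15.4 and 115 CPM) and Mgl2 sit higher on HFD and Chil3 and Il4ra lower. At right the intervals overlap for the Il4ra shares, 20% and 14.1%, and for the Chil3 shares, 16.6% and 10.9%.

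The 5 genes differed in where else they were found among the sorted cells. Other classes were set in the same way, as cells with 4 or more of 7 or 8 markers of exactly 1 class and outside the macrophage rule. B-like and plasma-like cells, which should lack the target genes, served as the measure of free RNA. They held a median of 4085 and 4222 UMIs (B-like) and 11959 and 12878 UMIs (plasma-like) on LFD and HFD. Chil3 and Mgl2 had 0 UMIs in both classes of both libraries. Retnla was in 0.535% of HFD plasma-like cells, against 6.48% of HFD macrophage-like cells, whose median depth was below that of the plasma-like cells.

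Retnla was not confined to cells that passed the macrophage rule. LFD neutrophil-like cells held it at 22.3 CPM (6.07 to 57.0) on 4 UMIs in 2 of 133 cells, an interval that takes in the 15.4 CPM of LFD macrophage-like cells. It had 0 UMIs in the monocyte-like, dendritic-like, T-like and endothelial-like cells of both libraries. On HFD, 347 of 867 Retnla UMIs lay outside it, and 6 cells with 3 or more UMIs held 327 of those. They carried 110, 60, 58, 43, 39 and 17 Retnla UMIs and 1 to 3 of the 7 macrophage markers. The first 5 of them had Ear2 (4 to 25 UMIs), Ccr2 (1 to 7) and Lyz2 (20 to 59), genes of monocytes and macrophages, as well as Tyrobp (2 to 14), and none had a UMI of Chil3. One of these cells, with 58 UMIs, had passed the rule of ILC2-like cells, the group 2 innate lymphoid cells that make IL-5 and IL-13 in fat, and alone gave that class its 137 CPM on HFD. On LFD 1 cell outside the rule had as many as 3 UMIs. In B-like and plasma-like cells Retnla was present in 0 of 1016 and 1 of 267 cells on LFD and in 2 of 745 and 6 of 1122 on HFD, always as a single UMI.

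Chil3 was at its highest in monocyte-like cells, which were few: 143 UMIs in 14 of 22 LFD cells (1405 CPM, 1185 to 1656) and 8 UMIs in 3 of 4 HFD cells. The macrophage rule takes in monocyte-like cells that hold 4 of its markers, and 41 LFD and 14 HFD macrophage-like cells also passed the monocyte rule, so these numbers moved together with the Chil3 level. With all cells that passed another class's rule left out, the Chil3 ratio was 0.649 (0.535 to 0.788). Neutrophil-like cells on LFD held 6 Chil3 UMIs (33.4 CPM, 12.3 to 72.7; 133 cells), and endothelial-like cells 28 UMIs in 8 of 595 cells on LFD and 3 in 3 of 566 on HFD. No Chil3 UMI was found in dendritic-like, ILC2-like, T-like, B-like or plasma-like cells of either library.

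Mgl2 was found in dendritic-like cells at 27.6 CPM on LFD (12.6 to 52.4; 9 UMIs in 6 of 40 cells) and 22.1 CPM on HFD (11.02 to 39.5; 11 UMIs in 4 of 56 cells). These intervals overlap those of macrophage-like cells in both libraries. With 3 rather than 4 markers needed for a class, the dendritic-like levels were 10.1 and 67.9 CPM, so they rest on the rule. Mgl2 had 0 UMIs in the neutrophil-like, ILC2-like, T-like, B-like, plasma-like and endothelial-like cells of both libraries, and 0 of 1016 LFD B-like cells allows a share of cells with a UMI of up to 0.295% (3 counts), which does not limit the share that expresses the gene at a lower level.

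Il4ra was the broadest of the 5. On LFD the order was neutrophil-like (206 CPM, 145 to 284), monocyte-like (187, 112 to 292), stromal or mesothelial-like (154, 151 to 157), macrophage-like (128), endothelial-like (107, 96.3 to 118), dendritic-like (73.6, 47.2 to 109.5), B-like (39.3, 33.8 to 45.4), T-like (30.6, 8.34 to 78.4), ILC2-like (20.5, 10.9 to 34.99) and plasma-like cells (9.91, 6.86 to 13.9). Between neighbours in this order the intervals did not overlap from stromal or mesothelial-like to macrophage-like and from dendritic-like to B-like cells, and overlapped elsewhere. On HFD endothelial-like cells were highest at 126 CPM (112 to 141), with neutrophil-like cells at 103 CPM on 4 UMIs, and the intervals of stromal or mesothelial-like (75.1), macrophage-like (73.8) and ILC2-like cells (71.1, 48.0 to 101.5) overlapped. Mast-like and mural-like cells, 1 to 3 of each per library, were left out of both orders. The HFD over LFD ratio was 0.487 (0.472 to 0.504) in stromal or mesothelial-like cells, near that of macrophage-like cells, 1.18 (1.01 to 1.37) in endothelial-like cells, and 3.47 (1.76 to 7.26) in ILC2-like cells on 13 and 30 UMIs. Of all Il4ra UMIs 84.8% and 74.8% were in stromal or mesothelial-like cells, and plasma-like cells, the deepest of the immune classes, had it in 9.36% and 3.92% of cells. The part of free stromal RNA in the macrophage-like value was not tested.

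Endothelial-like cells held the largest share of the Nos2 UMIs in both libraries among these classes. They had it at 18.04 CPM on LFD (13.9 to 23.0; 64 UMIs in 55 of 595 cells) and 34.1 CPM on HFD (27.2 to 42.3; 83 UMIs in 64 of 566 cells), a ratio of 1.89 (1.35 to 2.66), and held 44.8% and 62.9% of its UMIs. Stromal or mesothelial-like cells held 30.1% and 5.30%, at 0.519 and 0.103 CPM (43 UMIs in 38 cells and 7 in 7). In 133 LFD neutrophil-like cells, a shallow class with a median of 1257 UMIs, there were 10 UMIs in 7 cells (55.7 CPM, 26.7 to 102). The macrophage-like cells, on 3 and 1 UMIs, lay below the endothelial-like level in both libraries.

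**Figure D2:**
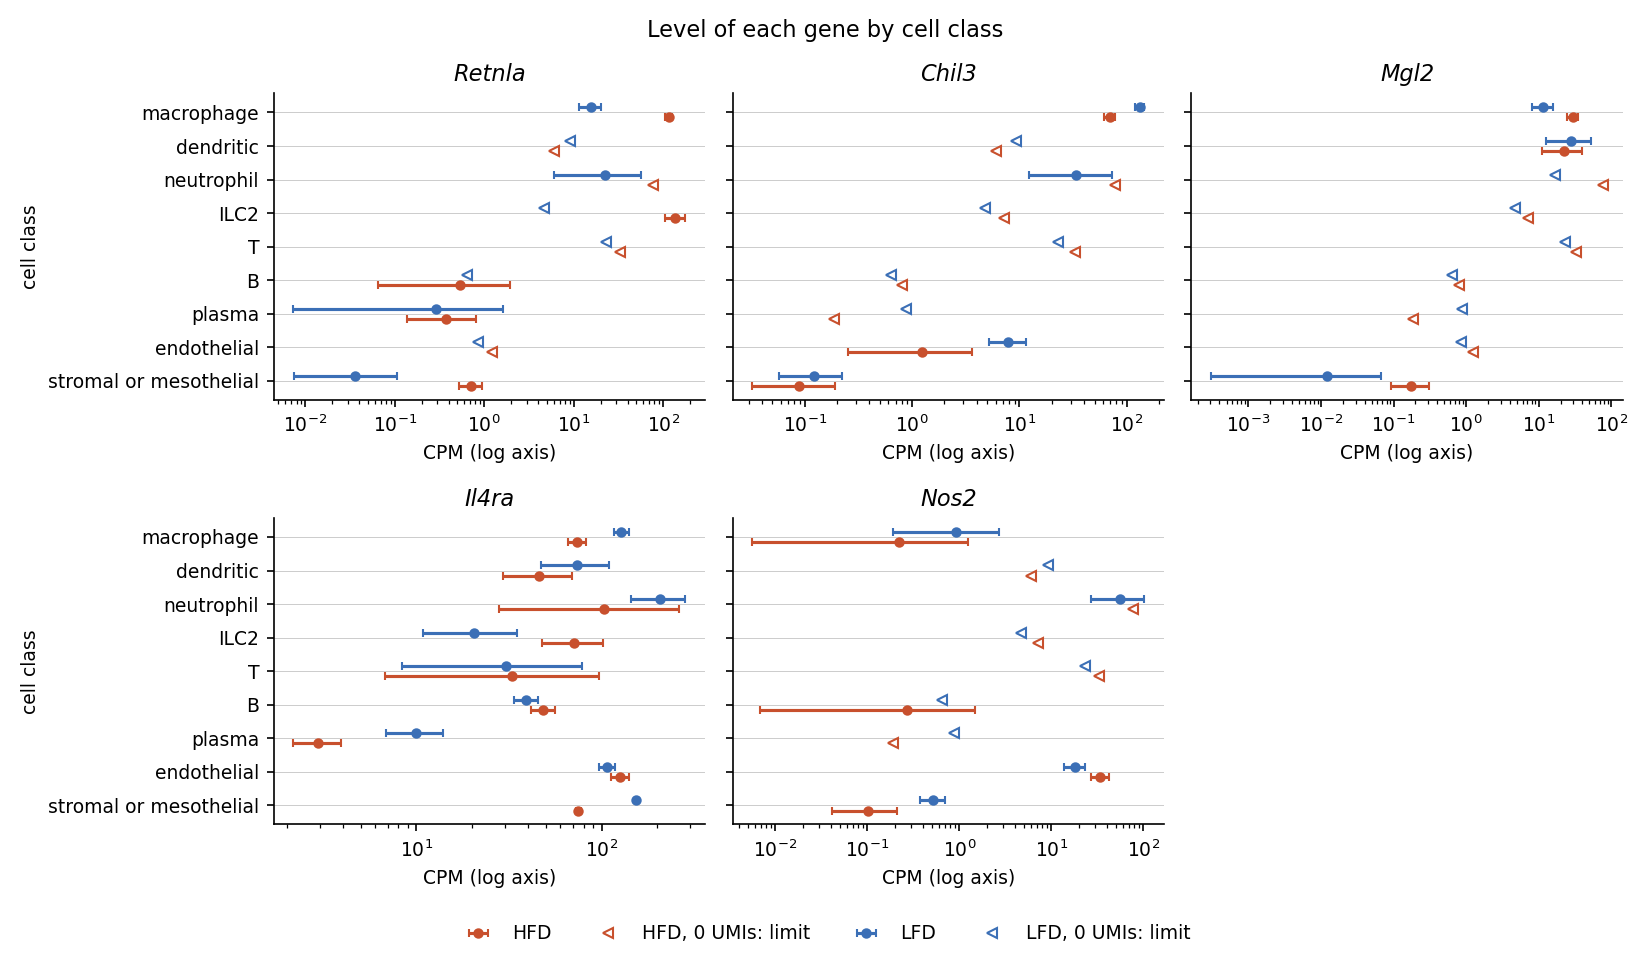
CPM of each gene (log axis, a panel per gene) in 9 classes of cells named without the suffix -like, with LFD in blue and HFD in orange; bars are 95% Poisson intervals and open triangles mark the level that 3 counts would give where a class had 0 UMIs. Chil3 is higher in macrophage-like than in endothelial-like cells, Il4ra is spread over all classes, and Nos2 is higher in endothelial-like than in macrophage-like cells; the ILC2-like Retnla point on HFD is 1 cell.

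Each target was detected in a minority of cells, and few cells held more than 1. Of Retnla, Chil3 and Mgl2, exactly 1 was detected in 151 of 543 LFD cells (27.8%) and 157 of 540 HFD cells (29.1%), and 2 were detected in 1 (0.184%) and 17 (3.15%). No cell held all 3, and 391 and 366 cells held none.

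Retnla and Mgl2 came together on HFD. Of 35 Retnla-positive cells 14 had Mgl2 (40%, 23.9 to 57.9%), against 31 of 505 Retnla-negative cells (6.14%, 4.21 to 8.60%), a difference of 33.9 percentage points (19.2 to 50.4). At equal depth the shares were 32% (14.9 to 53.5%) and 3.21% (1.84 to 5.15%). Read from the other side, 31.1% of the 45 Mgl2-positive cells (18.2 to 46.6%) and 4.24% of the 495 Mgl2-negative cells (2.65 to 6.41%) had Retnla. On LFD none of the 5 Retnla-positive cells had Mgl2, a share with an interval from 0 to 52.2%.

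Few HFD cells had Chil3 together with either. Of 111 HFD Chil3-positive cells 1 had Retnla (0.901%) and 2 had Mgl2 (1.80%), against 7.93% (5.55 to 10.9%) and 10.02% of the 429 Chil3-negative cells. The differences were -7.02 points (-10.1 to -2.44) and -8.22 points (-11.7 to -3.05), although the Chil3-positive cells were the deeper ones, with a median of 7434 UMIs against 6701. At equal depth the Retnla shares, 0% (0 to 6.27%) and 5.35% (3.49 to 7.80%), differed by -5.35 points (-7.78 to 1.19), and the Mgl2 difference was -1.20 points (-4.64 to 7.36). Below 5% mitochondrial UMIs the differences were -8.49 points for Retnla (-15.4 to 0.315) and -6.27 for Mgl2 (-13.4 to 3.88), and both intervals include 0. On LFD none of 140 Chil3-positive cells had Retnla and 1 had Mgl2, against 1.24% and 1.74% of the 403 Chil3-negative cells. These LFD differences were -1.24 points (-2.87 to 1.52) and -1.02 points (-2.92 to 2.32), and both intervals include 0. Il4ra was found in 43.6% of Chil3-positive and 40.4% of Chil3-negative LFD cells and in 48.6% and 39.6% of HFD cells. The intervals of both differences, -6.18 to 12.6 and -1.22 to 19.3 points, include 0. With Retnla on HFD the Il4ra shares were 37.1% and 41.8%, a difference of -4.64 points (-19.3 to 12.4).

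**Figure D3:**
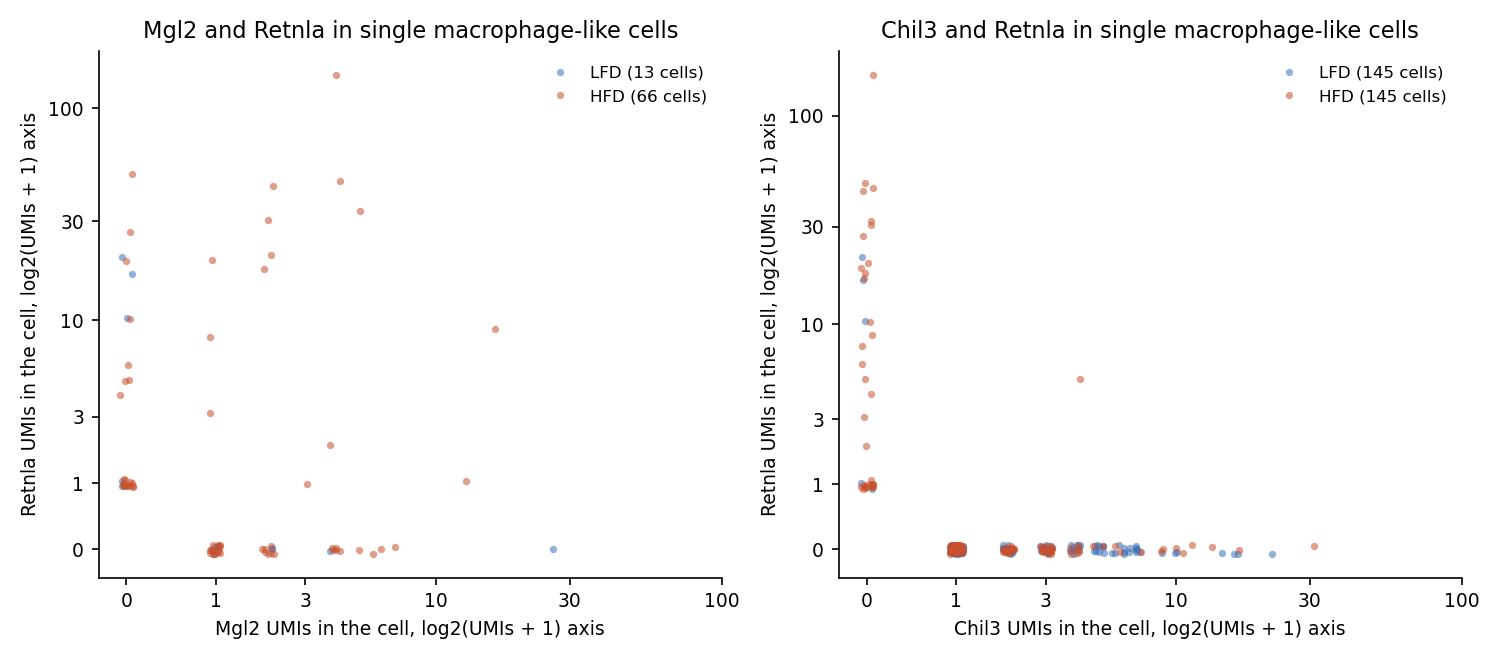
UMIs of Mgl2 and Retnla (left) and of Chil3 and Retnla (right) in single macrophage-like cells, LFD in blue and HFD in orange, on log2(UMIs + 1) axes with small random offsets; cells with 0 UMIs of both genes are not drawn. At left 14 of the 35 HFD Retnla-positive cells also hold Mgl2, while at right 1 of them holds Chil3.

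Other genes went with each of them. Over the 543 LFD and 540 HFD macrophage-like cells, with counts per 10000 on a natural log scale and 7952 genes compared and ranked by the smaller r of the 2 libraries, the genes most like Retnla were Ednrb, an endothelin receptor gene (Pearson r = 0.26 on LFD and 0.27 on HFD), Cbr2, a carbonyl reductase gene of resident macrophages (0.24 and 0.24), and the complement gene C4b (0.27 and 0.22). By the same ranking the genes most like Chil3 were Ccr2, the chemokine receptor of recruited monocytes (0.29 and 0.22), Cd52 (0.26 and 0.21) and Il1b (0.31 and 0.21). For Mgl2 they were Psd3 (0.22 and 0.21) and Eps8 (0.21 and 0.26), and no gene reached 0.2 in both libraries with Il4ra. The order within 1 library differed: on HFD Retnla and Mgl2 had a higher r with each other (0.37) than with these genes, against -0.01 on LFD. These r values are descriptions across cells of the same library, which share its depth and free RNA. On LFD Retnla had a UMI in 5 cells and Mgl2 in 8, so their LFD r values rest on few cells. Of these LFD UMIs, 3 cells held 48 of 50 for Retnla and 1 cell held 25 of 37 for Mgl2. The minimum of a UMI in 5% of cells applied to the compared genes, and Retnla and Mgl2 were below it on LFD.

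Partner genes that are not among the 5 were chosen for the next values after their values had been seen. Most Retnla-positive HFD cells carried the tissue-resident macrophage genes Folr2, Fcna and Lyve1. Most also carried Mrc1 and Clec10a, which are counted below among the alternative activation targets. The positive cells were the shallower ones, with a median of 6017 UMIs against 6931. Of these 35 cells 91.4% had Mrc1, the mannose receptor gene (76.9 to 98.2%), 88.6% Folr2 (73.3 to 96.8%), 74.3% Clec10a (56.7 to 87.5%), 74.3% Fcna (56.7 to 87.5%) and 65.7% Lyve1 (47.8 to 80.9%), against 47.5, 54.5, 39.4, 19.2 and 12.3% of the 505 Retnla-negative cells. The tetraspanin gene Cd9 was in 28.6% (14.6 to 46.3%) against 80.2%, and Spp1, which encodes osteopontin, in 14.3% (4.81 to 30.3%) against 64.6%. The 45 Mgl2-positive HFD cells resembled them, with Mrc1 in 93.3%, Clec10a in 75.6%, Lyve1 in 44.4% (29.6 to 60.0%) and Spp1 in 11.1% (3.71 to 24.1%). Chil3-positive cells did not: none of the 111 on HFD had Lyve1 (0 to 3.27%), against 19.8% of Chil3-negative cells, and 52.3% had Il1b (42.6 to 61.8%) against 27.7% of Chil3-negative cells.

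The number of tissue-resident markers in a cell (Lyve1, Timd4, Folr2, Cbr2, Fcna, Cd209f and Gas6) went with different shares of the targets on HFD, although no share changed in 1 direction at every step. From none of the 7 to 1, 2, 3 and 4 or more, Retnla was in 1.72, 0.671, 3.85, 11.4 and 24.2% of HFD cells and Mgl2 in 3.45, 2.68, 7.69, 13.6 and 24.2%. The Chil3 shares in the same order were 25.3, 33.6, 15.4, 11.4 and 0%. The Retnla level had no such order, at 67.5, 3.77, 202, 52.1 and 349 CPM. The few LFD cells with 4 or more markers, 15 in all, held Retnla and Mgl2 each in 20%, and Chil3 in 6.67%. Il4ra was in 37.4% of HFD cells with none and 53.7% of those with 4 or more, and in 38.1% and 73.3% of LFD cells.

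**Figure D4:**
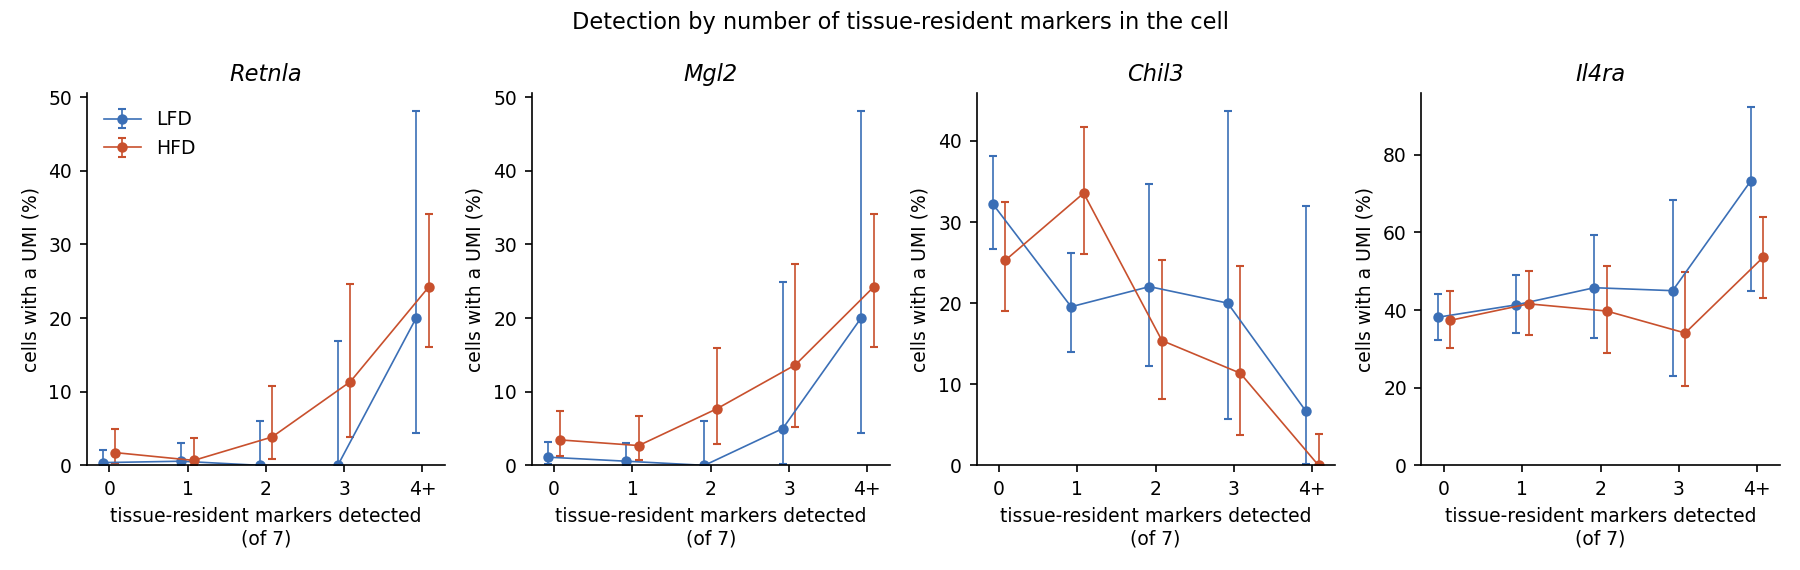
Percent of macrophage-like cells with a UMI of Retnla, Mgl2, Chil3 and Il4ra (a panel each) by how many of 7 tissue-resident markers the cell held, LFD in blue and HFD in orange, with 95% Clopper-Pearson bars. On HFD the Retnla share goes from 1.72% with no marker to 24.2% with 4 or more, and the Chil3 share from 25.3% to 0.

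Cells with 3 or more of these markers, a limit set after the data were seen, made up 35 of 543 LFD cells (6.45%, 4.53 to 8.85%) and 139 of 540 HFD cells (25.7%, 22.1 to 29.6%), so this share moved together with the Retnla and Mgl2 levels. Within cells of 3 or more markers Retnla was at 125 CPM on LFD (28 UMIs in 3 cells) and 250.1 CPM on HFD (273 UMIs in 28 cells). The ratio was 2.00 (1.35 to 3.06), and the shares were 8.57% and 20.1% of cells. Mgl2 in the same cells was at 35.8 and 77.9 CPM, a ratio of 2.18 (1.06 to 5.20). In cells with fewer than 3 markers, Retnla was at 7.30 and 72.2 CPM, from UMIs in 2 of 508 LFD and 7 of 401 HFD cells, a ratio of 9.90 (6.39 to 16.1). A single LFD cell held 21 of the 22 UMIs, and without the richest cell of each library in this set the levels were 0.332 and 28.7 CPM and the ratio was 86.4 (15.1 to 3447) on 1 and 98 UMIs. The 7 HFD cells held 247 of the 520 HFD UMIs, and 4 of them carried 149 UMIs with 2 markers and 44, 26 and 21 with none. Mgl2 in cells with fewer than 3 markers was at 9.62 and 14.3 CPM, a ratio of 1.49 (0.923 to 2.45), in 0.787% of LFD and 3.99% of HFD cells (4 and 16). The LFD cell with 25 Mgl2 UMIs is 1 of these 4, and with the richest cells left out in the same way the levels were 1.33 and 10.5 CPM and the ratio was 7.93 (2.84 to 30.7). Il4ra was lower on HFD in both sets, with ratios of 0.475 (0.330 to 0.693) and 0.549 (0.464 to 0.649). Chil3 had a ratio of 0.615 (0.212 to 2.16) in the first set, on 5 and 15 UMIs, and 0.619 (0.532 to 0.720) in the second, where it was found in 26.6% of LFD and 26.4% of HFD cells. The ratios depended on the limit. With the limit at 2 markers, the cell of 149 Retnla UMIs fell in the upper set, and the Retnla ratio was 5.20 (3.55 to 7.92) with 2 or more markers and 4.26 (2.66 to 7.11) with fewer. The Mgl2 ratio was then 4.64 (2.27 to 11.02) with 2 or more, and with fewer it lay on the other side of 1, at 0.874 (0.495 to 1.54), on 29 LFD UMIs of which 25 were in 1 cell.

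The other genes of the pathway are described by counts against the 1.8% and 1.1% of all genes past the upper and lower limits. Of 20 listed genes of IL-4 and IL-13 signalling, 17 had at least 50 counts and none had a ratio of at least 2 or at most 0.5, as few as those shares give for a list of this size. Their median log2 ratio was -0.10, beside 0.05 over all 9164 genes. Il13ra1, the partner of the IL-4 receptor alpha chain in the type II receptor, was at 49.4 and 35.7 CPM (ratio 0.722, 0.577 to 0.905). Il2rg, the partner chain of the type I receptor, was at 45.7 and 42.8 CPM (0.936, 0.752 to 1.17), and Stat6 at 47.9 and 56.7 CPM (1.19, 0.967 to 1.46).

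Of the 20 listed alternative activation targets beyond the 5 genes, 19 were found by symbol and 12 had 50 counts, with a median log2 ratio of 0.30. Ear2, an eosinophil-type ribonuclease gene that monocytes also express, had a ratio of 3.30 (2.16 to 5.20; 8.34 and 27.5 CPM), and Ccl24, an eosinophil chemoattractant gene, one of 0.329 (0.258 to 0.417; 70.1 and 23.1 CPM). Ear2 was in 3.31% of LFD and 5.74% of HFD cells. Ccl24 was in 6.26% and 7.78%, so its share of cells was not lower on HFD. Mrc1 was at 296 and 368 CPM (ratio 1.24, 1.15 to 1.35), and the lectin gene Clec10a, a relative of Mgl2, at 93.2 and 161 CPM (1.73, 1.51 to 1.98). Reads shared by Mgl2 and Clec10a may have been assigned to either.

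In arginine and polyamine metabolism the 11 genes examined all had 50 counts, none passed a limit (1.8% and 1.1% of all genes did), and their median log2 ratio was 0.06. Slc7a2, which encodes a transporter of arginine and other cationic amino acids, was at 21.3 and 15.1 CPM (0.707, 0.499 to 1.00). Of 18 classical activation genes 13 had 50 counts, and 3 had a ratio of at most 0.5: Acod1, which makes itaconate (0.464, 0.333 to 0.642), the formyl peptide receptor gene Fpr2 (0.356, 0.258 to 0.487) and the scavenger receptor gene Marco (0.359, 0.192 to 0.649). The median of that list was -0.44.

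Among 6 tissue-resident genes with 50 counts, 5 had a ratio of at least 2: Lyve1 at 13.8 (9.51 to 20.8), Fcna at 8.33 (6.20 to 11.4), Cd209f at 3.21 (2.23 to 4.75), Cbr2 at 2.47 (2.05 to 3.00) and Folr2 at 2.33 (2.06 to 2.63). None of the 3 large peritoneal, 7 lipid-associated, or 6 MHC class II and recruited macrophage genes with 50 counts passed either limit, beside the same 1.8% and 1.1% of all genes, and their median log2 ratios were -0.0012, 0.15 and 0.52.

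**Figure D5:**
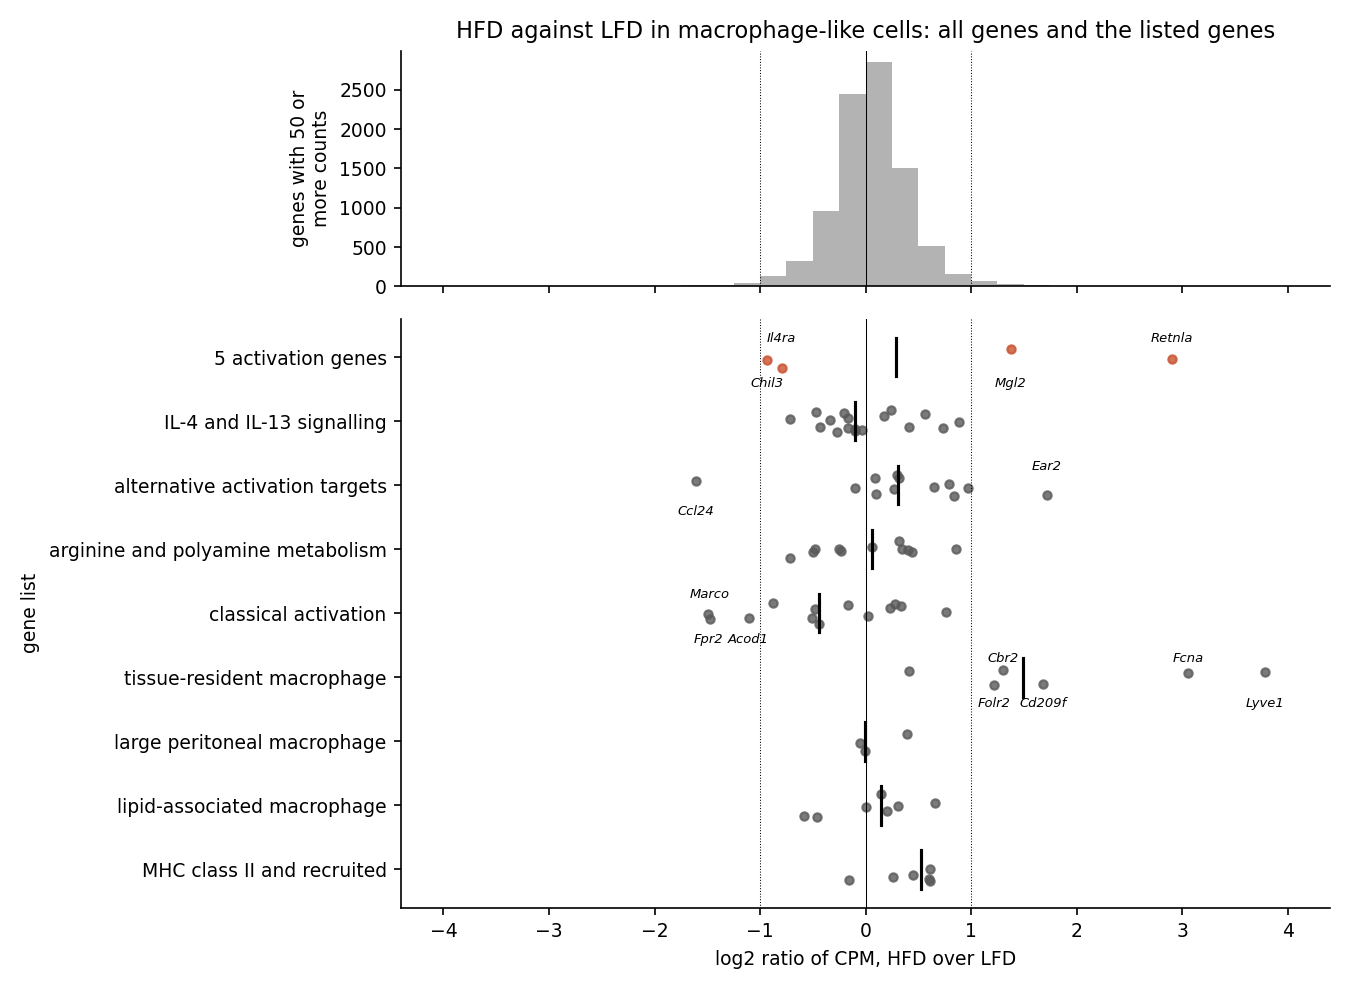
Top: number of genes with at least 50 counts by log2 ratio of CPM, HFD over LFD, in macrophage-like cells; bottom: the listed genes by list (grey) with the 4 of the 5 genes that reached 50 counts in orange, a black bar at each list's median and dotted lines at a ratio of 2 and 0.5. Retnla lies at 2.90 and Mgl2 at 1.38, beyond the bulk of genes, and Chil3 (-0.93) and Il4ra (-0.80) lie on the other side of 0.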

How the data were processed

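The authors' deposited files hold raw counts, whole UMI counts per gene and cell barcode from the 10x Single Cell 3′ v3 chemistry, for 1 LFD library (11281 barcodes, 114311020 UMIs) and 1 HFD library (9631 barcodes, 119498750 UMIs). The submitters' processing notes name Cell Ranger 4.0.0, Seurat 4.1.0, bcl2fastq 2.17.1.14, STAR and the build mm10. The annotation behind the counts is not given in the sources used here; 32158 of 32285 gene IDs were found in GENCODE M21.

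Cells with 500 to 40000 UMIs, at least 100 genes and under 12.5% mt- counts were kept, as in the study's methods, and doublets were left in (the study excluded them). CPM intervals are exact Poisson, shares Clopper-Pearson, ratios exact conditional binomial, and differences of shares Newcombe, all at 95%. Depth was equalised by drawing 2000 UMIs per cell (seed 1). A level of 0 was limited at 3 counts. Ratios were summarised for genes with 50 or more counts over both libraries, and called past 2 or 0.5. All 5 genes are named, then of the lists the genes past a limit plus Il13ra1, Il2rg, Stat6, Mrc1, Clec10a, Chil4 and Slc7a2, and of the most alike genes up to 3 with r of at least 0.2 in both libraries and a UMI in 5% of cells. The 5 genes, the lists and the limits were chosen with earlier results of these data known; some genes of the rule and the lists are not reported here. Calculations used Python 3.11.15, numpy 2.4.6, scipy 1.17.1 and scanpy 1.11.5, and the interval code was tested on simulated data.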

Additional observations from a re-analysis of the deposited data

Results flagged for a closer look

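The diet ratio of Il4ra lay on opposite sides of 1 in different classes: 0.576 in macrophage-like cells and 1.18 in endothelial-like cells (1.01 to 1.37; 379 and 306 UMIs). With 1 library per diet the difference between classes was not tested.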

How the results depend on the processing

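With 1 library per diet neither animals nor libraries can be left out, and depth limits the rarer genes (Nos2, and Retnla and Mgl2 on LFD). No paired analysis was possible because each diet had 1 library and no result comes from a test. Of 63 recomputed diet ratios 40 stayed within the counting interval of the reported value, 21 moved outside it and 2 turned direction. For shares of cells 75 of 100 stayed, for differences of shares 76 of 78, for levels by class 15 of 24, and for counts of listed genes 21 of 24 stayed within 1.5 times. Scrublet took out 74 macrophage-like cells per library. The cause of the moves was not tested. By construction thinning can only lower a share among the cells it keeps. It also drops shallower cells, so a share can rise, as for Retnla on LFD from 0.921% to 1.08% at 4000 UMIs.

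The Retnla ratio was 2.00 in cells with 3 or more resident markers, where the 28 LFD UMIs were in 3 cells. It was 86.4 (15.1 to 3447, on 1 and 98 UMIs) in cells with fewer once the richest cell of each library was left out. The Chil3 ratio was 0.649 without cells passing another class's rule, 0.807 under 5% mitochondrial UMIs, 0.7996 there without the richest cells, and 0.615 and 0.619 in the resident-marker sets. The Mgl2 ratio turned to 0.596 under 5% mitochondrial UMIs and was 7.0 without the richest cells, 11.8 with both, and 1.49 in cells with fewer than 3 resident markers, where 1 LFD cell held 25 of 29 UMIs, and 7.93 in those without the richest cells. The Il4ra ratio was 0.691 without cells passing another rule, 0.687 without the highest Scrublet scores, 0.421 under 5% mitochondrial UMIs and 0.475 in cells with 3 or more resident markers. With 2 or more resident markers the ratios were 5.20 for Retnla, 0.380 for Chil3, 4.64 for Mgl2 and 0.485 for Il4ra, and with fewer than 2 they were 4.26 for Retnla, 0.685 for Chil3 and, turned, 0.874 for Mgl2. The settings on the richest cells and resident markers were chosen after seeing the data.

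Under 5% mitochondrial UMIs the share of cells was 0% for Retnla on LFD, 29.9% and 29.8% for Chil3 on LFD and HFD, and 35.1% for Il4ra on HFD. Thinned to 1000 UMIs, LFD then HFD, it was 10.6% and 7.45% for Chil3, 0.557% and 2.61% for Mgl2, 10.8% and 8.57% for Il4ra, and 0% and 0% for Nos2, with 3.54% for Retnla on HFD. At 2000 UMIs it was 16.6% and 10.9% for Chil3, 20% and 14.1% for Il4ra, 4.58% for Mgl2 on HFD and 0% for Nos2 on LFD. At 4000 UMIs it was 16.1% for Chil3 on HFD, 0.538% for Mgl2 on LFD, and 32.8% and 25.9% for Il4ra. Without cells passing another rule Il4ra was in 36.3% on LFD, and with 5 markers needed Nos2 was in 0% on HFD.

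At 2000 UMIs per cell the difference between Chil3-positive and Chil3-negative HFD cells was -1.20 points for Mgl2, and that between Retnla-positive and Retnla-negative LFD cells was -20.2 points for Il4ra, on 4 positive cells.

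With 3 markers per class, Il4ra was at 77.3 CPM in stromal or mesothelial-like cells on HFD, Mgl2 at 10.1 and 67.9 in dendritic-like cells (LFD, HFD), and Retnla at 129.9 in macrophage-like cells on HFD. By Scrublet, in macrophage-like cells, Chil3 was at 173 and 81.7, and Retnla at 22.5 and 156, and Il4ra was at 158 in stromal or mesothelial-like cells on LFD. Of the 75 listed genes with at least 50 counts, 6 (8%) had a ratio of at least 2 and 4 (5.33%) of at most 0.5. The shares over all 9164 genes were 1.8% and 1.1%. With 1 count or more the listed genes past these limits were 13 and 11 of 93 (14.0% and 11.8%), beside 14.3% and 10.8% of all 16662 genes. With 5 markers needed, 2 of 73 listed genes were at most 0.5 (2.74%, beside 1.05% of all genes).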
